A study of Macaca fascicularis with 48 samples.

Results

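The cerebral cortex of cynomolgus monkeys (Macaca fascicularis) dosed with the TREM2 agonist antibody hPara.09 was compared between day 28 and day 4 after the dose. The animals were taken by their agent label, Para09.v2 at 200 mg/kg, and gave 12 of the 24 animals and 24 of the 48 samples of the study. Of these, 6 animals (7 to 12) had their brain taken on day 4 and 6 (19 to 24) on day 28, so each day holds different animals. Every one of them received a single intravenous dose, and no library from before the dose or from undosed animals was analysed here. The remaining 12 animals received anti-gD, the isotype control, at the same dose and on the same days, 6 on each day. An animal's pair of libraries, with title numbers n and n + 24, came from different frontal cortex punches, and which punch is which is not given in the labels. Age, sex and strain are not given in the labels either.

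TREM2 is a lipid-sensing receptor on the surface of microglia, the resident macrophages of the brain. It signals through the adaptor TYROBP, and its activity is known for shaping microglial survival, proliferation, phagocytosis and lipid handling. The comparison of days within the dosed animals asks how transcripts in the cortex differed between an early and a late time after the dose. Whole tissue was measured, so fewer cells of a type and less RNA per cell cannot be told apart, and microglia are a minor part of cortex.

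Exonic read counts were available for 28623 Ensembl IDs. None of them could be paired with a gene name (0 matched), so genes are given by ID, and the levels of microglial genes and of the markers of cortex were not analysed here. No function is attached to an ID. The hPara.09 libraries held 14028312 to 32118950 counts. Summed over an animal's libraries, totals were 33369336 to 55236819 at day 4 and 35238459 to 50947400 at day 28. Of the IDs, 16721 passed the low-count filter and were tested. Levels are in CPM, counts relative to library size with TMM factors, and a log2 fold change of 1 is a doubling.

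At day 28, 30 genes were higher and 14 lower than at day 4, 44 of the 16721 tested (0.263% called, 0.179% higher and 0.0837% lower). The test was edgeR's quasi-likelihood test at an adjusted p under 0.05, with the spread taken from all 24 animals. The changes were mostly modest. Among the called genes the median absolute change was 0.52 on the log2 scale, 12 of them moved by more than 1.5-fold and 3 by more than 2-fold. The higher genes ran from 0.31 to 2.38 on the log2 scale and the lower genes from -0.87 to -0.34. The upper end rests on genes at very low level. ENSMFAG00000005215, at 2.38 (standard error 0.516), averaged 0.204 CPM at day 4 and 1.10 CPM at day 28. ENSMFAG00000029104, at 1.87 (standard error 0.402), averaged 0.164 and 0.608 CPM. Both are among the 3 genes that moved by more than 2-fold, and the next largest rise was 1.13. In all 44 genes, all 6 day 28 animals lay on the called side of the day 4 mean, and in 31 of them the 2 days did not overlap, where 2.08% of all genes tested were without overlap. The genes were called on the values of these same animals, so both counts are a description and no further support. Adjusted p-values were narrowly placed, from 0.0229 to 0.0489 in edgeR. The last 3 genes called had adjusted p-values of 0.0482, 0.0482 and 0.0489 and log2 fold changes of -0.57, -0.52 and 0.42. The first 3 not called all stood at 0.0532, with log2 fold changes of 0.80, 0.42 and 0.67.

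The number of called genes differed between the fits and with single animals left out. With only the 12 hPara.09 animals in the fit, 0 of 16279 genes passed in edgeR (smallest adjusted p = 0.0621), and 3259 genes had raw p-values below 0.05. DESeq2 called 541 of 16702 genes (3.24%) and limma voom 46. Without animal 10, 11, 20, 21, 23 or 24 the count was 0. Without animal 7 it was 1, without animal 22 it was 3, without animal 12 it was 5 and without animal 9 it was 11. It rose to 178 without animal 8 and to 316 without animal 19. The fold changes of the 44 genes kept their sign in all of these fits. They were called on the same animals, so the kept signs are a description and no further support. Raw p-values below 0.05 were found for 3050 genes (18.2%) in the main edgeR fit, against 836 if p were evenly spread. Genes are not independent of each other within an animal, so the excess is not a count of changed genes.

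The sizes of change that lay outside each gene's 95% interval, not adjusted for the number of genes, are given next. They are not the sizes that the adjusted test would have called. For 85.0% of the tested genes, and 97.3% of the 9563 that averaged 10 CPM or more, a change of 2-fold in either direction was outside the 95% interval. For a change of 1.5-fold these shares were 59.2% and 81.7%.

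The called gene with the largest rise among those with at least 1 CPM was ENSMFAG00000032413, which is 14262 bases wide. At day 4 its lowest, median and highest levels were 2.91, 3.67 and 4.80 CPM, and at day 28 they were 5.72, 8.46 and 10.6 CPM. Every day 28 animal lay above every day 4 animal. The means were 3.75 ± 0.649 CPM (SD, n = 6) and 8.21 ± 1.99 CPM (SD, n = 6), a log2 fold change of 1.13 with a standard error of 0.198 (edgeR adjusted p = 0.0269). With anti-gD its median was 3.28 CPM on day 4 and 5.48 CPM on day 28, a log2 difference of 0.61 (standard error 0.198, adjusted p = 0.306). Those groups overlapped, with 3.20 CPM the lowest value at day 28 and 4.39 CPM the highest at day 4.

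The next largest rise was that of ENSMFAG00000044979, 7730 bases wide. Its day 4 levels were 32.5 CPM at the lowest, 41.3 at the median and 54.3 at the highest, against 48.0, 72.4 and 100 CPM at day 28 (animal 20 was the highest, at 100.2 CPM). The days overlapped: animal 19 of day 28, at 48.0 CPM, lay below animals 8 and 9 of day 4, at 52.6 and 54.3 CPM. This was a rise of 0.75 on the log2 scale (standard error 0.153, edgeR adjusted p = 0.0471), beside 0.35 (standard error 0.153, adjusted p = 0.443) in anti-gD animals.

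ENSMFAG00000032822, 2029 bases wide, fell the most of the called genes. It stood at 8.45, 16.4 and 23.5 CPM (lowest, median and highest) at day 4 and at 7.30, 8.80 and 10.1 CPM at day 28. Animal 9 of day 4, at 8.45 CPM, lay among the day 28 animals, and the other 5 day 4 animals lay above them all. It fell by 0.87 on the log2 scale (standard error 0.166, edgeR adjusted p = 0.0471). Anti-gD animals had medians of 9.96 CPM at day 4 and 10.4 CPM at day 28, with a log2 fold change of 0.02 and a standard error of 0.165 (adjusted p = 0.977). The difference in this gene thus lay in the spread-out and higher day 4 values of the hPara.09 animals, while the other 3 groups had medians between 8.80 and 10.4 CPM. The test of the difference between antibodies gave -0.89 with a standard error of 0.234 and an adjusted p of 1.00 in edgeR (0.000803 unadjusted). The gene was chosen on its day change in hPara.09 animals, which is part of that difference, so the unadjusted p is a description only.

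The second largest fall was that of ENSMFAG00000042747, a gene of 1098 bases at a low level. Day 4 animals had 2.73 CPM at the lowest, 4.25 at the median and 4.68 at the highest, and day 28 animals had 2.00, 2.25 and 2.54 CPM. The days did not overlap. It fell by 0.80 on the log2 scale (standard error 0.135, edgeR adjusted p = 0.0229). With anti-gD the medians were 3.61 and 3.11 CPM (log2 fold change -0.23, standard error 0.134, adjusted p = 0.555), so hPara.09 animals at day 28 were below all anti-gD animals, whose lowest value was 2.66 CPM.

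**Figure D1:**
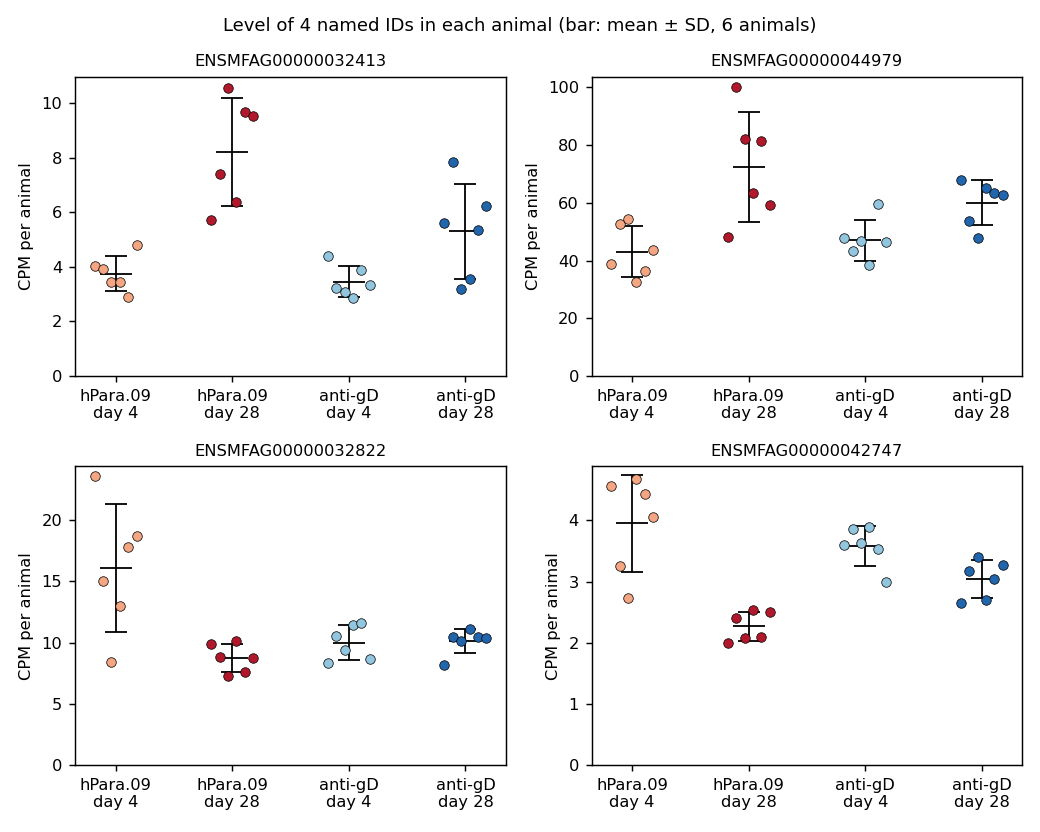
Level in CPM of 4 IDs (2 that rose, top, and 2 that fell, bottom) in each animal, by antibody and day. Points are animals with both libraries summed, and bars are the mean ± SD of 6 animals. ENSMFAG00000032413 and ENSMFAG00000042747 show no overlap between the hPara.09 days, and in ENSMFAG00000032822 the hPara.09 day 4 animals are the ones that spread, from 8.45 to 23.5 CPM.

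The comparison was repeated within each library set, since every animal has 1 library in each. With title numbers 1 to 24, 308 of 15924 genes were called in edgeR (1.93%), 243 higher (1.53%) and 65 lower (0.408%). With title numbers 25 to 48, 0 of 15763 genes were called (0%, smallest adjusted p = 0.359), with 1539 genes (9.76%) at a raw p below 0.05 and 6 genes called by DESeq2. The count of 308 was itself unsteady, at 38, 74, 9 and 196 without animals 7, 10, 11 and 12, at 194, 12, 21 and 88 without animals 20, 21, 23 and 24, and at 633 without animal 19.

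The higher numbered set showed changes of similar size with a larger spread. The 44 genes had a median absolute log2 fold change of 0.52 in the lower numbered set and 0.53 in the higher numbered one, and median standard errors of 0.115 and 0.159. Both sets entered the sum on which these genes were called, so their sizes within a set are a description. The common biological coefficient of variation was 22.8% in the lower numbered set and 28% in the higher numbered one. Over the 15660 genes tested in both sets the median absolute log2 fold changes were 0.181 and 0.168, the median standard errors 0.153 and 0.195, and 80.5% of genes had the same sign. Of the genes called with title numbers 1 to 24, all 241 higher genes and all 65 lower genes that were tested in the other set had the same sign there, 148 and 48 of them at an unadjusted p under 0.05. Their medians were 0.46 and -0.48 where they were called, against 0.36 and -0.44 in the other set. The sets come from the same animals, so this compares punches and libraries and adds no animals.

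The largest rise among called genes of at least 1 CPM and the largest fall are given by set. ENSMFAG00000032413 had a day 4 median of 3.97 CPM and a day 28 median of 9.39 CPM with title numbers 1 to 24, and 3.46 and 6.69 CPM with title numbers 25 to 48. In the lower numbered set its days did not overlap (2.89 to 5.20 CPM against 6.83 to 12.7 CPM), while in the other set animal 19, at 4.10 CPM, fell just under the highest day 4 value of 4.26 CPM. ENSMFAG00000032822 had medians of 16.4 and 9.09 CPM in the lower numbered set and 15.5 and 8.56 CPM in the other. Animal 7 was its highest and animal 9 its lowest day 4 animal in both sets, at 23.4 and 7.50 CPM in one and 23.4 and 9.33 CPM in the other. The spread of this gene at day 4 was thus between animals and was seen in both punches of each.

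The called genes were sorted by gene width. Higher genes were wide and lower genes were narrow. The deposited width is a length in bases whose definition is not stated, and over the genes tested its median was 2672 bases. The 30 higher genes had a median width of 4707 bases and 24 of them were wider than the median gene. The 14 lower genes had a median width of 1203.5 bases, between 588 and 2556 bases, and 0 of them were wider than the median gene. Among the higher genes, 4 IDs lay in the narrowest of 10 bins, at 100 to 228 bases, so the higher genes were not all wide. This relation is given without a test, because genes are not independent replicates.

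The same order was seen over all genes tested, most of which were not called. With the genes put into 10 bins by width, of 1672 or 1673 genes each, the median log2 fold change ran from -0.06 in the narrowest bin (median 396 bases) and -0.10 in bin 2 (1033 bases) to 0.00 at 2410.5 bases and 0.11 in the widest bin (7759 bases). Of the genes in bin 2, 33.9% were higher at day 28, against 70.8% in the widest. In the widest bin 48 genes were higher without overlap of the days and 1 was lower, and in bin 2 there were 4 higher and 53 lower, where 1.12% and 0.951% of all genes were higher and lower without overlap. Across the 16721 genes the log2 fold change and the log2 width had a Spearman rho of 0.213 and a Pearson r of 0.0988. The called genes changed by more than these medians, but they were chosen on their changes in the same animals. The sizes are thus not on an equal footing.

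**Figure D2:**
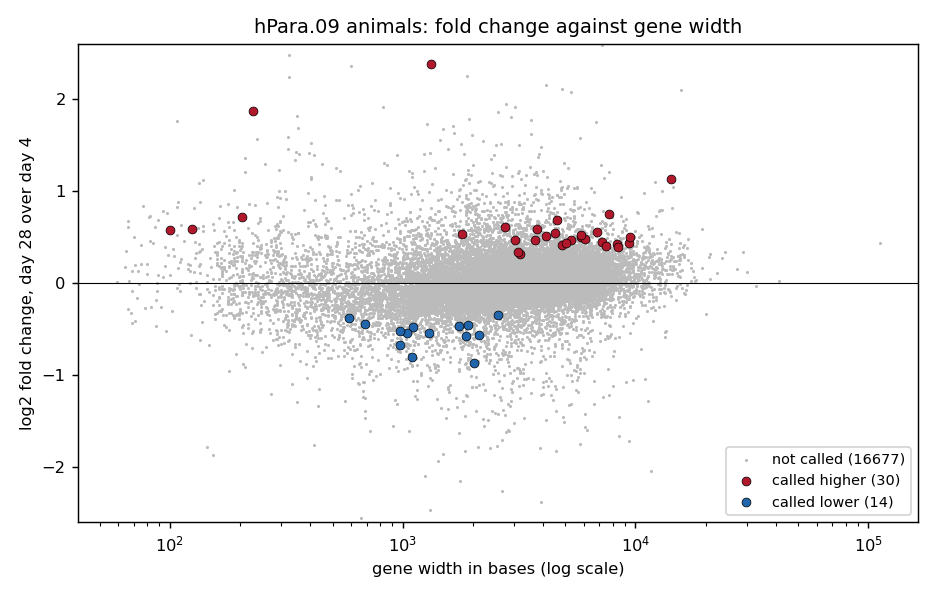
Log2 fold change of day 28 over day 4 in hPara.09 animals (vertical axis, both libraries of an animal summed) against gene width in bases (log scale), for the 16721 genes tested. Red points are the 30 genes called higher and blue points the 14 called lower. The blue points end at 2556 bases, most red points lie to the right of them, and 17 genes that were not called lie beyond the axis at 2.6 and are not drawn.

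DESeq2's larger list was split by width as well, with a median of 4572 bases for its 333 higher genes and 1318.5 bases for its 208 lower genes. So was the list from title numbers 1 to 24, at 4877 bases for higher and 1478 bases for lower genes. When each animal's smooth trend of level on width was removed before the test, an alternative chosen after seeing the data, 0 genes passed in edgeR (smallest adjusted p = 0.0655, with 2618 genes at a raw p below 0.05). The 44 genes kept their sign, and their median absolute log2 fold change went from 0.52 to 0.44. Every one of the 4 named genes had an adjusted p of 0.0655 in that fit, with log2 fold changes between -0.87 and 0.97.

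Expression level was related to the day difference less simply. Most of the called genes were well expressed, and 39 of the 44 had a mean of at least 10 CPM, against 57.2% of all genes tested. The test favours genes with small standard errors, and the called genes had a median of 0.106 against 0.155 over all genes tested. Their share at 10 CPM or more thus does not show a relation of level to the size of change. The median of the mean levels of the called genes was 36.9 CPM for higher and 30.2 CPM for lower genes, against 14.8 CPM over all genes. Counts rise with width, so levels between genes are compared per kilobase of width. On that scale the higher genes had a median of 8.18 CPM per kilobase, near the 5.68 of all genes, and the lower genes a median of 24.0. In 10 bins by CPM per kilobase the median log2 fold change fell from 0.09 in the lowest bin to -0.11 in the highest. In bins by CPM without regard to width it ran only from 0.07 to -0.04. Width is the divisor of the per-kilobase level, so these relations share a term.

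The medians rose with width within levels, while the few called genes did so less evenly. Genes were put into 3 equal classes of CPM and 3 of width. At high CPM the median log2 fold change was -0.14 for narrow, -0.05 for middle and 0.05 for wide genes, with 0 called higher and 6 lower among narrow genes, 3 higher and 1 lower among middle widths, and 14 higher and 0 lower among wide genes. At middle CPM the medians were -0.10, 0.02 and 0.09. Among narrow genes of that class 4 were called higher and 3 lower, among middle widths 2 higher and 3 lower, and among wide genes 5 higher and 0 lower. At low CPM the medians were -0.01, 0.10 and 0.10, and the called genes were all narrow, 2 higher and 1 lower.

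**Figure D3:**
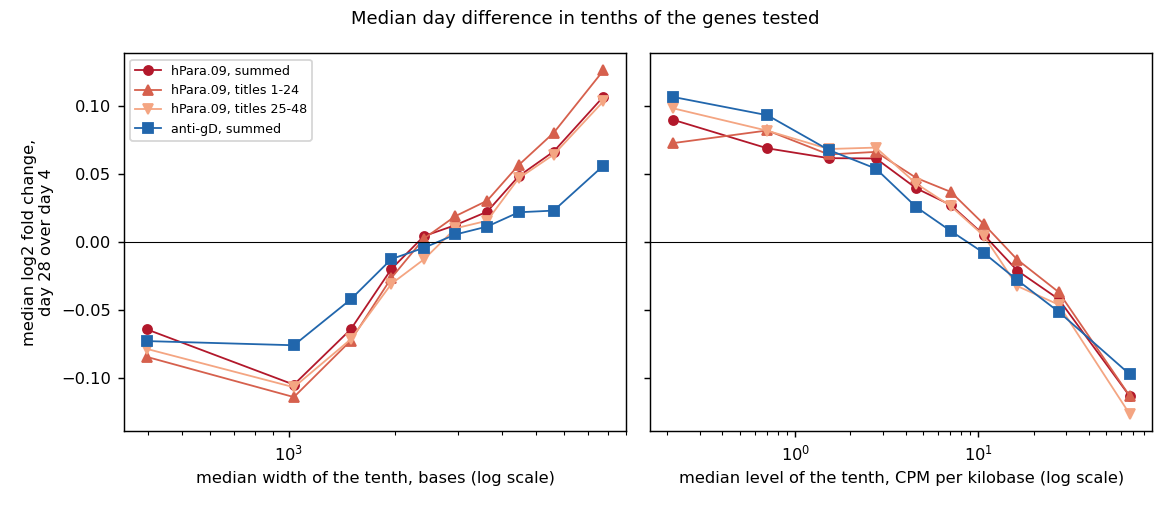
Median log2 fold change of day 28 over day 4 in 10 bins of the 16721 genes tested, against the median width of the bin in bases (left, log scale) and its median level in CPM per kilobase (right, log scale). Lines show hPara.09 animals with libraries summed and in each title number set, and anti-gD animals. All 4 lines rise with width from bin 2 on and end lower at the highest level than at the lowest, and the summed hPara.09 line reaches 0.11 in the widest bin against 0.06 for anti-gD.

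A slope was computed for each animal to carry the width relation to the replicate. It is the change in log2 CPM per doubling of width, relative to the mean of the 12 hPara.09 animals. At day 4 it was -0.0351 at the lowest, -0.0190 at the median and 0.0078 at the highest, and at day 28 it was 0.0058, 0.0155 and 0.0308. The days overlapped through animal 8 of day 4, at 0.0078, which lay above animals 19 and 22 of day 28. The day difference was 0.0308 (exact permutation test, two-sided, p = 0.00866 and adjusted p = 0.026 for 6 library measures, where the smallest p that 6 against 6 allows is 0.00216). It was 0.0397 with title numbers 1 to 24 (exact permutation p = 0.00216, adjusted p = 0.013) and 0.0398 with title numbers 25 to 48 (exact permutation p = 0.0325, adjusted p = 0.11). Over genes with at least 10 CPM it was 0.0674, more than 1.5 times as large (exact permutation p = 0.00866, adjusted p = 0.026). Without animal 20, 21, 22, 23 or 24 the adjusted p of the slope was 0.0519 to 0.0584 by exact permutation, with slopes of 0.0277 to 0.0327.

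The count total as a percent of the RPKM divisor, called the count share, also differed between the days. Behind the RPKM values of each library stood 1 divisor, a whole number of reads larger than the sum of the counts, and which reads it holds is not stated. The count share of hPara.09 animals was 59.7%, 62.0% and 63.4% (lowest, median and highest) at day 4 and 57.9%, 58.6% and 61.1% at day 28. Animal 8 of day 4, at 59.7%, lay below animals 19 and 20 of day 28, at 61.1% and 60.4%, and the rest of the days were apart. The means were 61.9% ± 1.22 (SD, n = 6) and 59.1% ± 1.30 (SD, n = 6), and the difference was -2.74 percentage points (exact permutation p = 0.00866, adjusted p = 0.026 over the 6 measures). It was -3.26 points with title numbers 1 to 24 (exact permutation p = 0.00433, adjusted p = 0.013) and -2.31 points with title numbers 25 to 48 (exact permutation p = 0.0368, adjusted p = 0.11). Without animal 20, 21, 22, 23 or 24 the adjusted p was 0.0519 to 0.0584 by exact permutation.

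**Figure D4:**
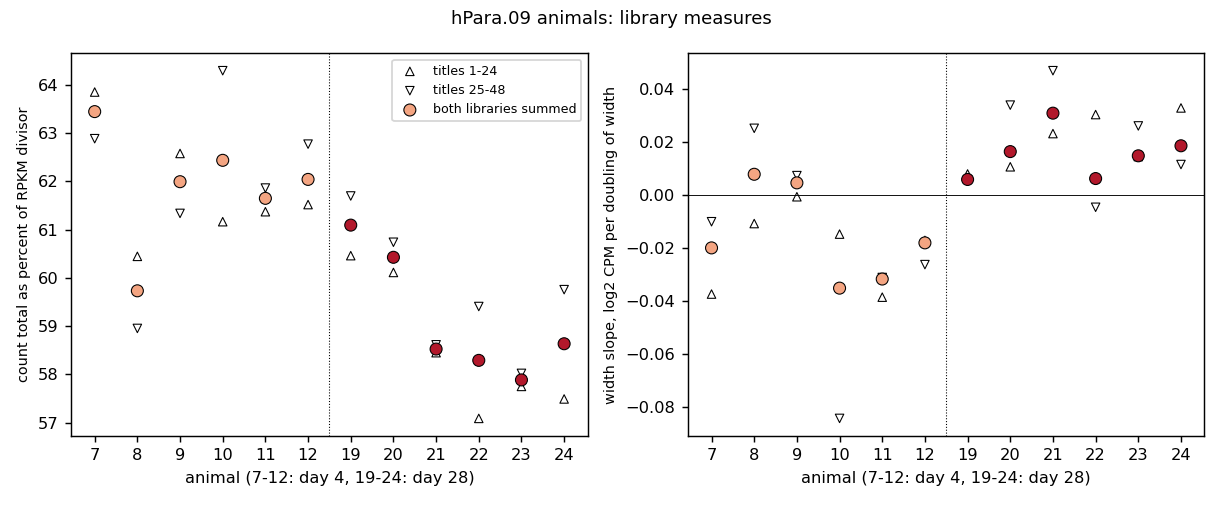
Count total as a percent of the RPKM divisor (left) and width slope in log2 CPM per doubling of width (right) for each hPara.09 animal, day 4 animals on the left of the dotted line and day 28 animals on the right. Filled circles are both libraries summed, and triangles are single libraries, pointing up for title numbers 1 to 24 and down for 25 to 48. Animal 8 has the lowest count share (59.7%) and the highest width slope (0.0078) of day 4, and animal 10 has the lowest single slope, -0.0842, in its higher numbered library.

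Both measures moved with day, as the called genes did, and the part of either in the called genes was not tested beyond the fits given here. With the count share of each animal in the fit as a covariate, 0 genes passed in edgeR (smallest adjusted p = 0.34), and 1443 genes rather than 3050 had an unadjusted p under 0.05. The 44 genes kept their sign, their median absolute log2 fold change went from 0.52 to 0.41 and their median standard error from 0.106 to 0.124. Count share and day moved together in these animals, so within this fit they cannot be told apart. Within a day, over 6 animals, count share and width slope had a Pearson r of -0.567 (exact permutation p = 0.264, adjusted p = 0.383 over the 4 groups of the study) and a Spearman rho of -0.543 (exact p = 0.297, adjusted p = 0.396) at day 4. At day 28 r was -0.333 (exact p = 0.521, adjusted p = 0.521) and rho -0.143 (exact p = 0.803, adjusted p = 0.803). With the 2 animals farthest from the median count share left out, r was -0.147 at day 4 and 0.449 at day 28. In anti-gD animals r was -0.524 at day 4 and -0.621 at day 28 (exact permutation, adjusted p = 0.383 for each). There it was 0.400 and -0.735 with the 2 farthest animals left out. No relation within a day was thus shown, and 6 animals a group are too few to exclude one. The other 4 measures did not pass: total count, IDs with at least 10 reads, the share of the 13 most abundant IDs, and the slope of level on mean log2 CPM. That last slope differed by -0.00703 between days (exact permutation p = 0.171, adjusted p = 0.342).

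The animals were also placed by their principal components over all genes tested, which was decided once the data had been seen. The first component held 18.1% of the variance of log2 CPM among the 12 animals and separated most of them by day, with mean scores of -0.143 at day 4 and 0.143 at day 28 (exact permutation p = 0.00433, adjusted p = 0.013 over 3 components). The days overlapped through animal 24 of day 28, at -0.0697, which lay below animal 8, the highest of day 4 at -0.0639. Animal 22 of day 28, at -0.00782, lay just above the day 4 animals. Components 2 and 3 held 15.3% and 11.1%, and their exact permutation p-values for day were 0.42 and 0.994. With the count share of the 12 animals, the scores of components 1, 2 and 3 had a Pearson r of -0.617, -0.232 and 0.0278, without a test. Count share differed between the days too, so day and count share cannot be told apart in component 1.

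The day difference of the anti-gD animals is given beside that of the hPara.09 animals. No anti-gD animal is in the groups that the hPara.09 test compared, but the spread in that test was taken from all 24 animals. In edgeR 0 of 16721 genes were called with anti-gD (0%, smallest adjusted p = 0.0847), with 1677 genes (10.0%) at a raw p below 0.05 and 49 genes called by DESeq2. All 30 genes called higher with hPara.09 were higher with anti-gD too, and 13 of the 14 lower genes were lower, where 67.5% of all genes tested had the same sign with both antibodies. The exception was ENSMFAG00000032822, at 0.02. Of the 44 genes, 26 had a raw p below 0.05 with anti-gD in edgeR. The same spread entered both tests, and it took part in calling these genes, so that count is a description. The medians of the 44 genes were smaller with anti-gD, 0.23 for the higher and -0.29 for the lower genes against 0.50 and -0.53. The genes were chosen on their values in hPara.09 animals, so the sizes are not on an equal footing. Across all genes tested the log2 fold changes with either antibody correlated at r = 0.347 (Pearson) and rho = 0.397 (Spearman), as a description.

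No difference between the antibodies in the day change was shown. The direct test called 0 of 16721 genes in edgeR (0%, smallest adjusted p = 0.214), with 716 genes (4.28%) at a raw p below 0.05, and DESeq2 called 1. Of the 44 genes, 18 had an unadjusted p under 0.05 for the difference, and their smallest adjusted p was 1.00. The 44 genes were called on the day change of the agonist animals, which is itself part of the difference tested. That choice favours low unadjusted p-values among them, so the count of 18 is a description and no evidence that the antibodies differed. For ENSMFAG00000032413 the difference was 0.52 with a standard error of 0.278, for ENSMFAG00000044979 it was 0.40 with a standard error of 0.216, and for ENSMFAG00000042747 it was -0.57 with a standard error of 0.19, each with an edgeR adjusted p of 1.00. A p that misses the threshold does not show that the antibodies acted alike.

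The width and count share measures moved the same way with anti-gD. The width slope differed by 0.0216 between its days (exact permutation p = 0.0628, adjusted p = 0.133) and the count share by -1.91 percentage points (exact permutation p = 0.0714, adjusted p = 0.133). In the bins by width the anti-gD medians ran from -0.07 and -0.08 in bins 1 and 2 to 0.06 in the widest. The hPara.09 day difference exceeded that of anti-gD by 0.00924 in width slope (exact permutation p = 0.464, adjusted p = 0.514 over 3 measures) and by -0.834 points in count share (exact permutation p = 0.514, adjusted p = 0.514), neither beyond the spread of the animals. The labels give no date of tissue handling, extraction or sequencing, so day after dose and any such step that went with it cannot be told apart.

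**Figure D5:**
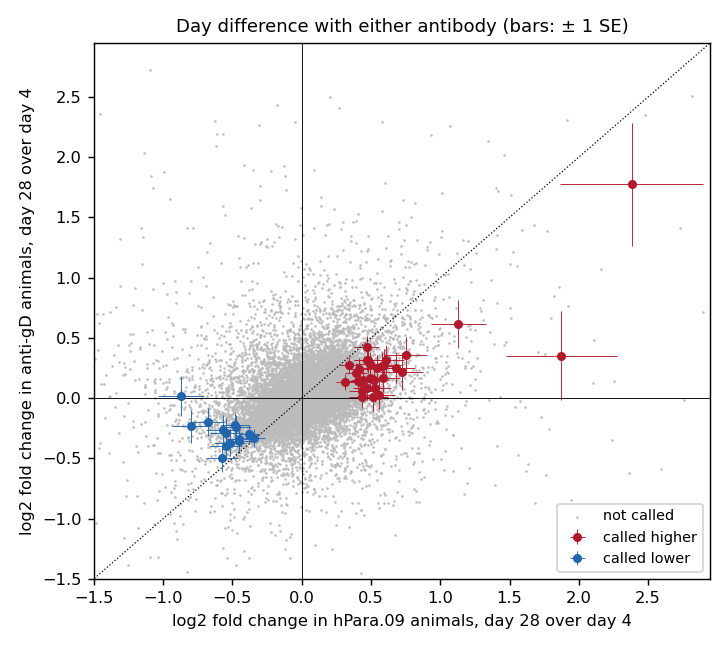
Log2 fold change of day 28 over day 4 in anti-gD animals (vertical axis) against that in hPara.09 animals (horizontal axis) for the genes tested, with ± 1 SE for the 44 genes called in hPara.09 animals. The dotted line marks equal changes, and 74 genes that were not called lie beyond the axes. Of the 44 points, 43 have the same sign with both antibodies, and all lie nearer to 0 on the anti-gD axis.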

How the data were processed

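Bulk RNA-seq libraries from 24 animals were used, 2 per animal. The deposited files gave whole-number exonic read counts, a width and an RPKM value per Ensembl ID, per the file headers. The RPKM was divided by the authors by 1 whole number of reads per library, recovered here from count, width and RPKM, and used for the count share only; RPKM values entered no test. GSNAP is named in the submitters' processing notes. Its version, the build, the annotation and strand handling are not given here in the sources used, so overlapping or near-identical genes are uncertain.

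Counts of an animal's libraries were summed. edgeR 4.0.16 (R 4.3.3) was run with TMM factors, filterByExpr, robust dispersions and a mean for each of 4 groups. The genes kept held 99.98% of the counts. Benjamini-Hochberg adjustment of the two-sided p-values covered every gene tested. DESeq2 1.42.0 and limma 3.58.1 were alternatives. Library measures were compared by exact permutation of animals. Slopes used log2 CPM with a prior count of 2. Scripts were tested on simulated counts. Named genes were the 2 higher and 2 lower called IDs of at least 1 CPM with the largest fold change. The comparison, rules and alternatives were chosen with earlier results of these data known. The cell type markers listed for this work were not analysed, since no ID had a name. Intervals cover the spread between animals.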

Additional observations from a re-analysis of the deposited data

How the results depend on the processing

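The count of 44 genes became 4 when low genes were kept, 28 under upper-quartile scaling, 541 in DESeq2, 197 in limma voom on single libraries with a set term, and 308 with title numbers 1 to 24. It became 0 with title numbers 25 to 48, with only the 12 hPara.09 animals, with the count share as a covariate and with width offsets (added after seeing the data). Leaving out each animal gave 0 to 316. DESeq2 size factors (39), limma voom on summed counts (46, robust or not) and the newer quasi-likelihood method (62) stayed within 1.5 times. Within title numbers 1 to 24 the count of 308 became 999 with DESeq2 and 9 to 633 with each animal left out. Within title numbers 25 to 48 the count of 0 became 6 with DESeq2 and 0 to 1 with each animal left out. DESeq2 called 49 genes between the anti-gD days and 1 gene for the difference between antibodies, where edgeR's smallest adjusted p was 0.214. The count share difference was -2.31 points and the width slope difference 0.0398 with title numbers 25 to 48, neither past the adjusted threshold, and -3.17 to -2.43 points and 0.0269 to 0.0355 when single animals were left out. The level slope passed in none of its 15 alternatives. No named gene reversed in its 25 alternatives, which is a description, since the genes were picked on these same animals. Each named gene passed in 11 to 14 of its alternatives, with adjusted p-values from 2.86e-05 to 0.48 over all 4. The cause of these changes was not tested. The outlier check of 20 sets of 6 animals found 0 animals far from their group. Changes under 1.5-fold, and changes of genes at low level, are the ones these animals and depths resolve least. Animals are not shared between days or antibodies, so no animal block applies.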
